A study of Caenorhabditis elegans with 2 samples.

Results

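The neuropeptide genes of Caenorhabditis elegans were taken as the protein-coding genes whose symbol is flp, nlp, ins or pdf followed by a number. They numbered 142 of the 19973 protein-coding genes annotated on WBcel235, and comprised 31 flp, 71 nlp, 38 ins and 2 pdf genes. They were examined in a ChIP-seq study of LIM-6, a LIM homeodomain transcription factor, in whole late embryos. Chromatin was precipitated through GFP, and 2 libraries had been prepared as biological replicates 1 and 2 of a single group. Both came from hermaphrodite strain OP388, which has the genotype unc-119(ed3) III; wgIs388, harvested 5 hours after bleaching-based synchronization. LIM-6 carries a C-terminal GFP tag in this line, and the line adds transgene copies of lim-6 to the native gene. All values come from this 1 transgenic line, and neither an untagged strain nor another condition was analysed here, so no contrast between conditions was tested.

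Neuropeptides are cut from longer precursors, matured and amidated in dense core vesicles, and released to act mostly on G protein-coupled receptors. The flp genes encode FMRFamide-like peptides, the ins genes insulin-like ligands of the receptor DAF-2, the pdf genes relatives of insect pigment-dispersing factor, and the nlp genes a mixed set of other neuropeptide-like proteins. LIM-6 is known from a small number of neurons, among them RIS, whose sleep-promoting peptide comes from flp-11. In RIS, LIM-6 acts upstream of the AP-2 factor APTF-1, which is required for flp-11 expression. Because the embryos were used whole, strong binding in few cells and weak binding in many cannot be told apart.

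The authors deposited relaxed lists of regions, in which peaks and background stand together, and a list of 570 reproducible peaks. Replicate 1 had 21953 relaxed regions, replicate 2 had 27731, and the pooled data had 25887. Each region carries a signal, a value set relative to a control and given on a scale that the sources used here do not state, and a q-value. Pooled signals had a median of 27.9 and began at 20.5, the reproducible peaks began at 80.03, and the medians of the library lists were 16.6 in replicate 1 and 15.9 in replicate 2. A q-value of at most 0.05 was given to 1764 of the pooled regions. A gene was counted as having a region when a summit fell in its promoter window, from 1000 bp before to 500 bp after an annotated transcript 5′ end, and its signal is the highest in that window. The lim-6 gene itself, which the transgene also carries, had a pooled signal of 126.7, with 67.9 in replicate 1 and 62.4 in replicate 2, and a reproducible peak.

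Sequence at the summits is shown for ins-39, which had the highest signal of the neuropeptide genes, for flp-11 because of its place in RIS, and for flp-14, flp-6, flp-9, nlp-49 and nlp-13, whose summits lay within 100 bp of a TAATTA match. At flp-1, which also had one, the stretch overlaps an annotated exon and is not shown. Many homeodomain proteins bind this sequence, which is its own reverse complement. Bases are from the RefSeq WBcel235 (ce11) assembly, centred on the pooled summit, on the strand of the gene and read 5′ to 3′, and capitals mark TAATTA. The stretches are chrX:1344942-1345142 (minus strand) for ins-39, chrX:4678140-4678340 (minus) for flp-11, chrIII:12910141-12910341 (plus) for flp-14, chrV:9470971-9471091 (plus) for flp-6, chrIV:12757083-12757203 (minus) for flp-9, chrX:5903961-5904081 (plus) for nlp-49 and chrV:4235843-4235963 (plus) for nlp-13. The flp-9 stretch lies around a summit in an intron of flp-9, and the other summits were intergenic.
ins-39: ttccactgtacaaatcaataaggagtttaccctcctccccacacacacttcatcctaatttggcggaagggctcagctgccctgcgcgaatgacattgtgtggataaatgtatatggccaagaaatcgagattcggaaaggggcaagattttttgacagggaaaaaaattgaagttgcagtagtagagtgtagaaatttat
flp-11: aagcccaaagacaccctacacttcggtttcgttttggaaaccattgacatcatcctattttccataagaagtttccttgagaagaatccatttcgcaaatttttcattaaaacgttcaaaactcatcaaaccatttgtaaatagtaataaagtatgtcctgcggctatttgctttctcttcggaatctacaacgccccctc
flp-14: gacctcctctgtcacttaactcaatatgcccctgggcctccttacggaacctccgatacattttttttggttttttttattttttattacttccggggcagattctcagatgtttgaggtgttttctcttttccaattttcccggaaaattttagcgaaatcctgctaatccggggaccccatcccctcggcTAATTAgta
flp-6: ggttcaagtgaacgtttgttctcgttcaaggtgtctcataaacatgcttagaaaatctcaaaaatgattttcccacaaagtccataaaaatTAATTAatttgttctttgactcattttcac
flp-9: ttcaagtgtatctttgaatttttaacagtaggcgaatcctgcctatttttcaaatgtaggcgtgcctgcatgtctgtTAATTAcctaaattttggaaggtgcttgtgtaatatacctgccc
nlp-49: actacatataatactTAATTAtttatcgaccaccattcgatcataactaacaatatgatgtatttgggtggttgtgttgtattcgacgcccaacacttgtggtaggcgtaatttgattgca
nlp-13: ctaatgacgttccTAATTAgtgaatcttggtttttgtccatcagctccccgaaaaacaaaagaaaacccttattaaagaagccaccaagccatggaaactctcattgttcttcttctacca

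Reproducible peaks were absent from the promoter windows of all 142 neuropeptide genes, and a count of 0 of 142 allows a share of up to 2.11% when set by 3 counts of the total, or 2.56% by the exact 95% interval. Of all protein-coding genes, 522 had one, or 2.61%. A pooled relaxed region was present at 55 of the 142 neuropeptide genes, 38.7% with an exact Clopper-Pearson 95% interval of 30.7 to 47.3%, against 41.0% of all protein-coding genes. The members' share was thus close to the background, and its interval contained it. A pooled region with a q-value of at most 0.05 was present at 1 neuropeptide gene, ins-39, or 0.704% (0.0178 to 3.86%), against 6.07% of all protein-coding genes. The exact intervals for reproducible peaks, up to 2.56%, and for the q-value limit, up to 3.86%, lay below the shares of all protein-coding genes. All these intervals cover counting error over genes only, since genes are not replicates.

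In the libraries, replicate 1 had a region at 42 neuropeptide genes, 29.6% against 36.8% of all protein-coding genes. Replicate 2 had a region at 60, 42.3% against 42.0%. Both lists had one at 29 genes, 20.4% against 25.0% of all protein-coding genes, while 13 had one in replicate 1 only, 9.15% against 11.8%, and 31 in replicate 2 only, 21.8% against 16.9%. No region in any list was found at 67 neuropeptide genes, or 47.2%, against 44.4% of all protein-coding genes. The remaining 20 genes without a pooled region had one in at least 1 library list, as did 14.6% of all protein-coding genes. For the 87 neuropeptide genes without a pooled region, the nearest pooled summit lay between 569 and 12633 bp from a 5′ end, with a median of 2787 bp.

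Among the families, a pooled region was present at 17 of 31 flp genes, 54.8% with an exact 95% interval of 36.0 to 72.7%. It was present at 26 of 71 nlp genes, 36.6% (25.5 to 48.9%), at 12 of 38 ins genes, 31.6% (17.5 to 48.7%), and at neither pdf gene. The intervals of the 3 larger families overlapped one another and the share of all protein-coding genes. In both library lists together there were 9 flp (29.0%), 14 nlp (19.7%) and 6 ins genes (15.8%), against 25.0% of all protein-coding genes. Replicate 1 held 13 flp (41.9%), 20 nlp (28.2%), 8 ins (21.1%) and 1 pdf genes, against 36.8%. Replicate 2 held 14 flp (45.2%), 34 nlp (47.9%), 12 ins (31.6%) and no pdf genes, against 42.0%. Most of the excess of replicate 2 over replicate 1 thus stood at nlp genes, the largest family. The exact 95% interval of the nlp share in replicate 2, 35.9 to 60.1%, contained the 42.0% of all protein-coding genes.

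**Figure D1:**
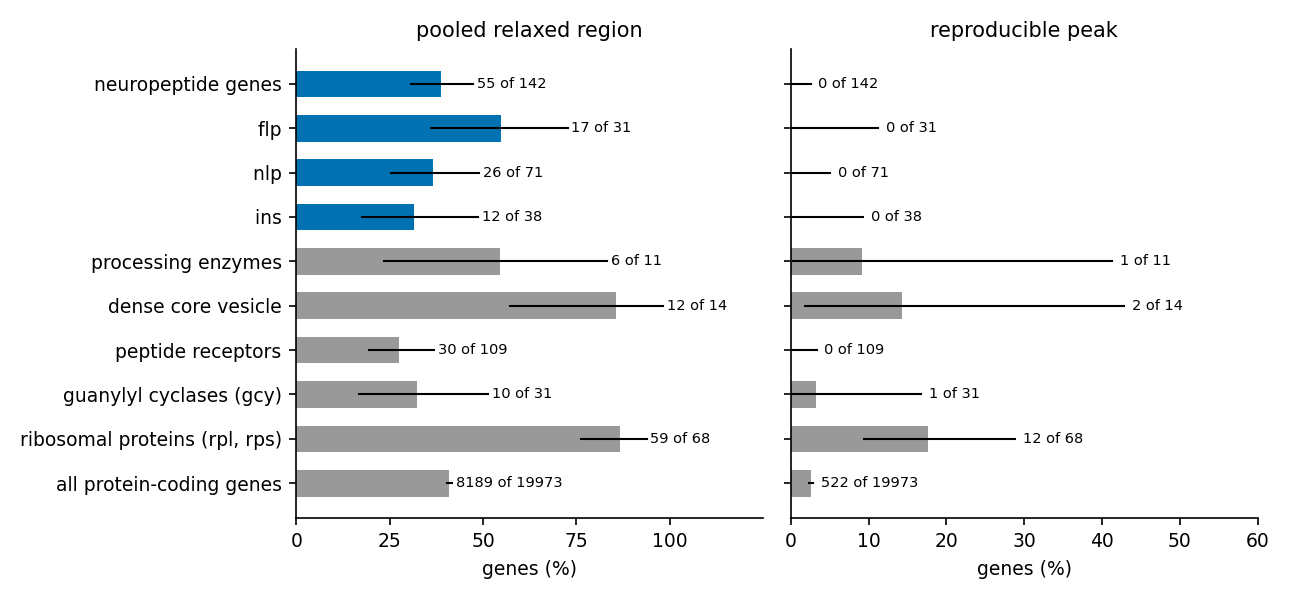
Percent of genes (horizontal axis) with a pooled relaxed region (left) or a reproducible peak (right) in the promoter window, for the neuropeptide genes and their families (blue) and for the comparison lists and all protein-coding genes (grey). Bars start at 0, black lines are exact 95% intervals over genes, and the numbers beside them are counts. The neuropeptide genes stand at 38.7% and 0%, against 41.0% and 2.61% of all protein-coding genes.

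Signal at the 55 neuropeptide genes with a pooled region spanned 20.8 to 71.9, with a median of 29.98 and quartiles of 23.9 and 35.0. Over the 8189 protein-coding genes with a pooled region the median was 31.1 and the quartiles were 24.9 and 42.3. The families differed little in this value, with medians of 30.1 for flp, 29.0 for nlp and 29.8 for ins genes. Among the 1000 pooled regions of highest signal lay a summit of 1 neuropeptide gene, 0.704% of them, against 4.0% of all protein-coding genes. Among the 5000 highest lay summits of 5, or 3.52% against 12.9%, and among the 10000 highest, summits of 26, or 18.3% against 21.1%.

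**Figure D2:**
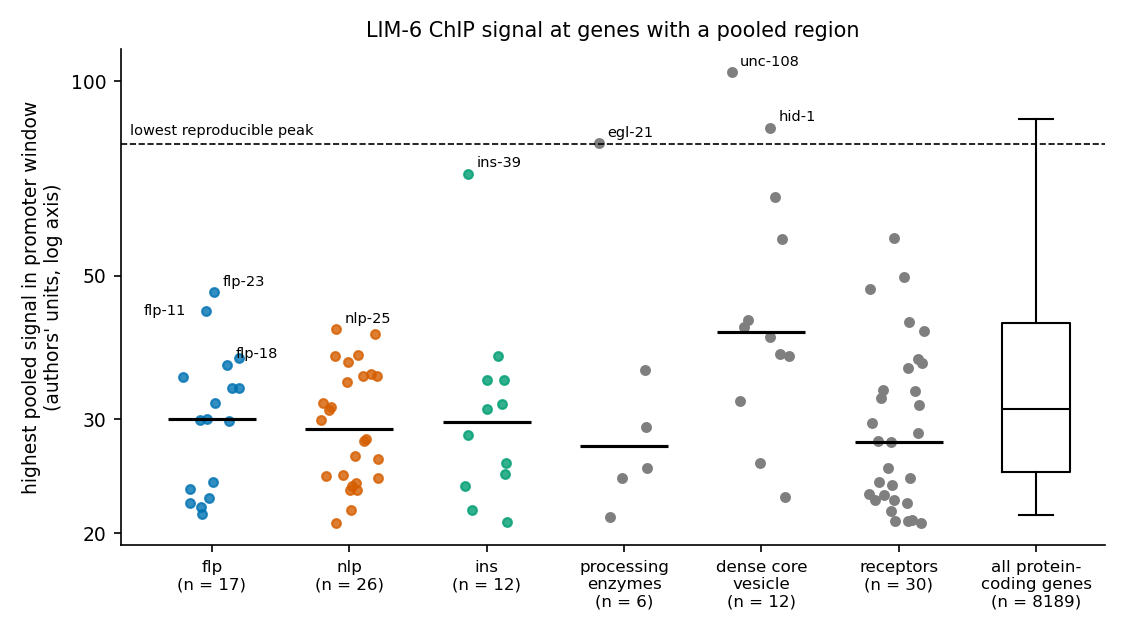
Highest pooled signal in the promoter window, in the authors' units on a log axis, for each gene with a pooled region in the 3 families (coloured), in 3 pathway lists (grey) and over all protein-coding genes (box with median and quartiles, whiskers at the 5th and 95th percentiles). Black bars are medians and the dashed line is the lowest reproducible peak, at 80.03. All 55 neuropeptide genes shown lie below that line, ins-39 nearest to it at 71.9, while egl-21, hid-1 and unc-108 lie on or above it.

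The insulin-like gene ins-39 on chromosome X (minus strand) had the highest pooled signal of the neuropeptide genes, 71.9, with 44.9 in replicate 1 and 24.1 in replicate 2. Its region, chrX:1344830-1345253, was intergenic, with the summit 621 bp upstream of the 5′ end, and ranked 753 in the pooled list. The deposited −log10 q-value was 2.33 in the pooled list, 2.45 in replicate 1 and 0.667 in replicate 2. Both libraries placed the summit within the same region, but the replicate 1 signal exceeded that of replicate 2 by 0.90 on the log2 scale, a ratio above that of 96.3% of the 4995 protein-coding genes with a region in both lists. Its pooled signal was above that of 92.1% of the protein-coding genes with a pooled region. In the older ce10 build, where the authors list 858 reproducible peaks down to a signal of 68.9, a reproducible peak on chromosome X had a signal of 71.9, within 9.21e-05% of the ce11 value at ins-39. Another of the 158 ce10 reproducible peaks on chromosome X had a signal of 71.96, within 0.0711%. Coordinates were not converted between the builds, so whether either peak is the ins-39 site was not tested.

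The other ins genes lay well below it. At ins-30 the pooled signal was 37.6, with 23.6 in replicate 1 and 14.5 in replicate 2, and the summit was 9 bp downstream of the 5′ end. The divergent neighbours ins-19 and ins-31 shared one region of signal 34.5, with 15.3 in replicate 1 and 15.5 in replicate 2, in which only 52.6% of 31-base words occur once in the genome, so reads there could belong elsewhere. At ins-26 the pooled signal was 31.7, at ins-17 it was 31.1, and both had a region in replicate 2 only, of 19.9 at ins-26 and 27.5 at ins-17. The strong DAF-2 agonists ins-4, ins-6 and ins-7 had no region in any list. Of the antagonists, ins-1 had no region and ins-18 had one in replicate 2 only, of 17.6.

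The RIS gene flp-11 on chromosome X (minus strand) had a pooled signal of 44.1, the third highest of the neuropeptide genes, with 15.0 in replicate 1 and 29.0 in replicate 2. Its region, chrX:4678028-4678451, was intergenic, made wholly of sequence that occurs once in the genome, with the summit 111 bp upstream of the 5′ end in the pooled and replicate 1 lists and 89 bp upstream in replicate 2. It ranked 3131 in the pooled list, 14426 in replicate 1 and 2035 in replicate 2. The libraries thus placed the region alike but ranked it far apart. The log2 ratio of replicate 1 to replicate 2 was −0.95, below which lay 4.04% of the protein-coding genes with a region in both lists. The pooled signal was above that of 77.6% of genes with a region, the −log10 q-value was 0.672, and there was no reproducible peak. The regulator of flp-11 in RIS, aptf-1, had 60.7 in the pooled list, 37.0 in replicate 1 and 26.6 in replicate 2, with the summit 559 bp upstream and no reproducible peak. Its pooled region had a q-value of at most 0.05, as at 6.07% of all protein-coding genes, and that of flp-11 did not.

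Among the other flp genes, flp-23 had the highest pooled signal, 47.1, with 20.3 in replicate 1 and 24.7 in replicate 2 and a summit 292 bp upstream. A tRNA gene lay within 250 bp of that summit and 69.6% of the 31-base words there were unique, and the part of either in the signal was not tested. At flp-4 the pooled signal was 37.3, with 19.3 in replicate 1 and 16.1 in replicate 2, and the summit was 13 bp downstream of the 5′ end. At flp-14 it was 34.9, with 13.4 in replicate 1 and 21.8 in replicate 2, and the summit was 269 bp upstream. At flp-9 it was 33.6, with 16.4 in replicate 1 and 16.2 in replicate 2, and the summit was 427 bp downstream, so the libraries were nearly equal there.

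The peptides of flp-18 and flp-21 are ligands of the receptor NPR-1, which controls feeding and aggregation behaviour. At flp-18 a region of signal 31.5 stood in replicate 2, rank 1520 of that list, with a −log10 q-value of 1.45, while replicate 1 had no summit in the window. It was the only neuropeptide gene with a region among the 2000 highest of one library and none in the other. The pooled signal at flp-18 was 36.4, in an intron of flp-18, 419 bp upstream of the nearest annotated 5′ end. At flp-21 no list had a region.

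The highest nlp genes differed in where their regions lay. At nlp-25 the pooled signal was 41.4, with 24.5 in replicate 1 and 19.5 in replicate 2, and the summit fell 506 bp upstream in a coding exon of kcnl-1. At nlp-50 it was 40.6, with 21.7 in replicate 1 and 17.3 in replicate 2, and the summit lay 9 bp downstream in the 5′ UTR. For nlp-25 the highest regions of the libraries were not at the same place, since the summit was 139 bp downstream in replicate 1 and 528 bp upstream in replicate 2. At nlp-76 the pooled signal was 37.7, with 14.7 in replicate 1 and 23.1 in replicate 2, at 180 bp downstream. At nlp-7 it was 37.6, with 25.5 in replicate 1 and 16.3 in replicate 2, at 295 bp upstream. At nlp-81 it was 35.3, with a region of 26.9 in replicate 2 and none in replicate 1. The replicate 1 region that overlaps the pooled one at nlp-25 had 19.97, close to the 19.5 of replicate 2.

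Of the 6 peptide genes with a known part in sleep, 4 had a pooled region, 66.7% with an exact 95% interval of 22.3 to 95.7% that contains the 41.0% of all protein-coding genes. Besides flp-11 they were nlp-14, flp-24 and nlp-22, the first and second expressed in the sleep-promoting ALA neuron and the third in RIA. At nlp-14 the pooled signal was 36.7, and the pooled summit lay 476 bp downstream in its coding exon. The libraries had 16.4 in replicate 1 and 18.4 in replicate 2 in the regions that overlap it, though the replicate 2 region counted in the list comparison, of 13.96, had its summit 179 bp upstream. At flp-24 it was 21.4, near the bottom of the list, with 15.6 in replicate 1 and no region in replicate 2. The neighbours nlp-22 and nlp-23 shared one region of 35.0, whose summit lay in a coding exon of nlp-23, with 22.4 in replicate 2 and no region in replicate 1. The ALA peptide gene flp-13 had no region in any list, its nearest pooled summit being 11420 bp away, and nlp-8 had one in replicate 2 only, of 13.4.

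The epidermal antimicrobial peptide genes nlp-27 to nlp-31 and nlp-34 form a cluster on chromosome V. At nlp-28 the pooled signal was 31.0, with 23.5 in replicate 1 and 16.1 in replicate 2, though the highest summits of the libraries lay at 589 bp upstream and 289 bp downstream. At nlp-30 it was 24.3, with 20.9 in replicate 1 and no region in replicate 2. The divergent pair nlp-31 and nlp-34 shared one region of 23.3, with 12.6 in replicate 2 and none in replicate 1. At nlp-27 replicate 2 alone had a region, of 12.1, and nlp-29 had none, so nlp-28 was the only one of the 6 with a region in both libraries. The intestinal peptide gene nlp-40, which acts on the DVB neuron in defecation, had a pooled signal of 28.0, a region of 13.9 in replicate 2 and no summit in the window in replicate 1, at a site where 43.9% of 31-base words were unique. A replicate 1 region of 20.99 overlapped the pooled region there, with its summit outside the window.

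The pdf genes encode peptides of the receptor PDFR-1 that promote locomotion and arousal. No list had a region in the window of pdf-1, and the nearest pooled summit was 1456 bp from its 5′ end. At pdf-2 only replicate 1 had a region, of 13.4 and near the bottom of its list, and the nearest pooled summit was 667 bp away.

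Across the 29 neuropeptide genes with a region in both library lists, the median log2 ratio of replicate 1 to replicate 2 was −0.02. The quartiles were −0.21 and 0.32, and 14 were higher in replicate 1 and 15 in replicate 2. Regions of the 2 libraries overlapped by at least 1 bp at 24 of these genes, where the median was also −0.02. They overlapped by at least 50% of each at 21. Without such an overlap the ratio sets different sites side by side. Over the 4995 protein-coding genes with a region in both lists the median was −0.01 and the quartiles were −0.37 and 0.32. The wide differences at ins-39 and flp-11 ran in opposite directions. A median does not depend on the size of such differences. For the 55 neuropeptide genes with a pooled region, that region was overlapped in 50.9% by a region of both libraries, 16.4% by replicate 1 only, 29.1% by replicate 2 only and 3.64% by neither. Over all protein-coding genes with a pooled region these shares were 51.5%, 18%, 25.7% and 4.80%.

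**Figure D3:**
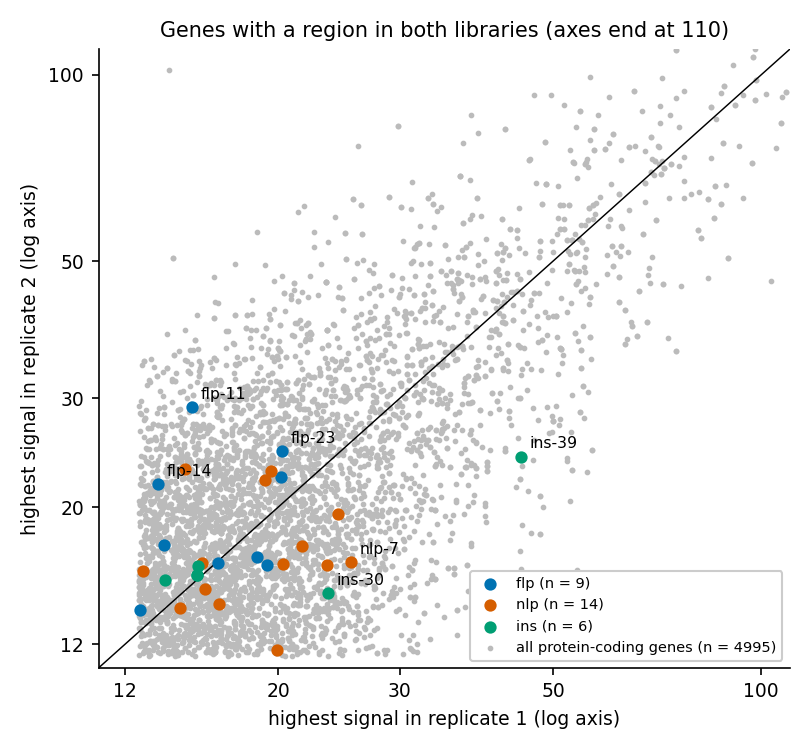
Highest signal in replicate 1 (horizontal) and replicate 2 (vertical) in the promoter window, both on log axes in the authors' units, for genes with a region in both library lists. Coloured points are the 29 neuropeptide genes, grey points all protein-coding genes, the line marks equal signal, and the axes end at 110. The ins-39 point lies far to the replicate 1 side, at 44.9 and 24.1, and the flp-11 point to the replicate 2 side, at 15.0 and 29.0.

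The place of the summit relative to the gene is given by counts, with no test. Of the 55 genes with a pooled region, 26 had the summit upstream of the nearest 5′ end, 47.3%, against 71.3% of the 8189 protein-coding genes, and the median position was 5 bp downstream, against −208 bp (upstream). Upstream summits made up 9 of 17 at flp, 13 of 26 at nlp and 4 of 12 at ins genes. In the first 250 bp downstream of the 5′ end lay 27.3% of the summits, against 15.3% over all genes, and from 250 to 500 bp downstream 25.5%, against 13.4%. The 55 genes drew on 52 distinct regions, because 3 pairs shared one. Of those, 34.6% had an intergenic summit, against 47.2% of the 7021 regions at all protein-coding genes, and 15.4% had one in a 5′ UTR, against 5.38%. Introns held 25.0% against 22.2%, and coding exons 23.1% against 22.05%. In 52 of the 55, or 94.5%, the gene was itself the one with the nearest 5′ end, against 83.5% over all genes, and in the other 3 it was the neighbouring neuropeptide gene.

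**Figure D4:**
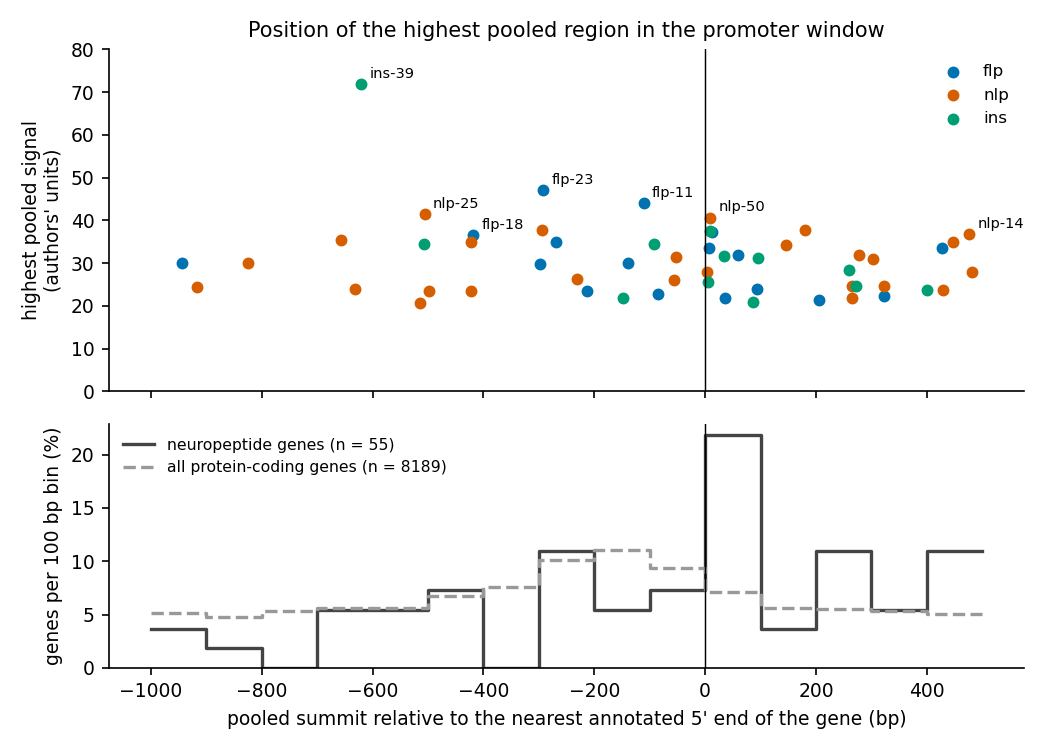
Upper panel: highest pooled signal, in the authors' units, against the position of the summit relative to the nearest annotated 5′ end in bp (negative is upstream), for the 55 neuropeptide genes with a pooled region, coloured by family. Lower panel: percent of genes per 100 bp of position for the neuropeptide genes (solid) and all protein-coding genes (dashed). The upstream share is 47.3% at neuropeptide genes, against 71.3% at all protein-coding genes.

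By chromosome, a pooled region was present at 19 of 35 neuropeptide genes on chromosome X, 54.3%, against 40.9% of all protein-coding genes there. On the autosomes together it was present at 36 of 107, 33.6% against 41.0%. The X genes comprised 8 of 13 flp, 10 of 19 nlp and 1 of 2 ins genes. On X the libraries differed, with a region at 10 neuropeptide genes in replicate 1 and at 21 in replicate 2. These were 28.6% against 36.3% of all protein-coding genes on X in replicate 1, and 60% against 43.1% in replicate 2. The lowest shares were on chromosome IV, 3 of 19 or 15.8% against 38.4%, and on chromosome II, 5 of 28 or 17.9% against 41.8%, where 15 of the ins genes lie and 3 of these had a region. Chromosome V had 11 of 23, or 47.8% against 32.5%.

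The sequence TAATTA occurred within 100 bp of the summit, on a search that covers both strands, at 6 of the 52 regions, 11.5%. Of all 25887 pooled regions, inside or outside promoter windows, 7.58% had it. By gene, within promoter windows alone, it was 10.9% of the 55 neuropeptide genes, against 8.27% of the 8189 protein-coding genes with a pooled region. The 6 genes were flp-1, flp-6, flp-9, flp-14, nlp-13 and nlp-49, so 4 were flp, 2 nlp and none ins, and they are named here because of this match. In the stretches printed above, the match lay 95 bp downstream of the summit at flp-14, 34 bp downstream at flp-6, 19 bp downstream at flp-9, 42 bp upstream at nlp-49 and 44 bp upstream at nlp-13. At flp-1 it lay 5 bp upstream of the summit. The highest replicate 2 regions of flp-6 and nlp-13 had their summits elsewhere in the window. At nlp-49 this held for both libraries. The summit there was 632 bp upstream of the 5′ end in the pooled list, 972 bp in replicate 1 and 358 bp in replicate 2. At flp-1 replicate 2 had no region. Pooled signals of the 6 genes were 34.9 at flp-14, 33.6 at flp-9, 30.1 at flp-6, 24.0 at flp-1, 23.9 at nlp-49 and 20.8 at nlp-13. Neither ins-39 nor flp-11 was among the 6. Over the whole window from 1000 bp upstream to 500 bp downstream, TAATTA was found at 82 neuropeptide genes, 57.7% against 54.7% of all protein-coding genes. By family these were 21 flp (67.7%), 39 nlp (54.9%), 20 ins (52.6%) and both pdf genes. At flp-11 the window held one match, 439 bp upstream of the summit. GAGAGA, searched on both strands, was found at 11.5% of the 52 regions, against 17.6% of all pooled regions. By gene, within promoter windows alone, it was 12.7% against 19.8%. GCCNNNGGC, the form bound by AP-2 factors and its own reverse complement, was found in the window of 12 neuropeptide genes, 8.45% against 6.67% of all protein-coding genes, and flp-11 was not one of them.

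The genes that mature, package and receive neuropeptides were set beside the peptide genes. Of 11 processing enzymes, 6 had a pooled region, 54.5% (23.4 to 83.3%) against 41.0% of all protein-coding genes, and 1 a reproducible peak, 9.09% (0.23 to 41.3%) against 2.61%. That peak stood at egl-21, the carboxypeptidase E that trims the cut peptides, with a pooled signal of 80.2, with 36.6 in replicate 1 and 46.6 in replicate 2, 86 bp upstream of the 5′ end. Its signal was close to the lowest reproducible one. The amidating enzyme gene pghm-1 had 35.7, with 20.6 in replicate 1 and 14.7 in replicate 2, and kpc-1, a proprotein convertase, had 25.3, with a region of 17.5 in replicate 2 only. At sbt-1, whose product is a chaperone of the convertase EGL-3, the pooled signal was 29.2 and neither library had a region.

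Of 14 genes of dense core vesicle formation and release, 12 had a pooled region, 85.7% (57.2 to 98.2%) against 41.0% of all protein-coding genes. Regions in both libraries stood at 9 of them, 64.3% (35.1 to 87.2%) against 25.0%, and reproducible peaks at 2, 14.3% (1.78 to 42.8%) against 2.61%. The intervals for pooled regions and for both libraries lay above the shares of all protein-coding genes. That for reproducible peaks contained it. Their median pooled signal was 41.0, against 31.1 over all protein-coding genes with a region. The small GTPase gene unc-108 (Rab2) had 103.3, with 38.0 in replicate 1 and 67.6 in replicate 2, and a summit 46 bp upstream. The vesicle maturation gene hid-1 had 84.7, with 42.2 in replicate 1 and 44.3 in replicate 2. The kinase gene pkc-1 had 66.2, with 35.9 in replicate 1 and 26.7 in replicate 2. At ric-19, a partner of Rab2, the signal was 56.9, with 36.7 in replicate 1 and 22.6 in replicate 2. Whether this list differs from the peptide genes was not tested.

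Of 109 peptide receptor genes, 30 had a pooled region, 27.5% (19.4 to 36.9%) against 41.0% of all protein-coding genes. Regions in both libraries stood at 13, 11.9% (6.51 to 19.5%) against 25.0%. Both intervals lay below the shares of all protein-coding genes. None of the receptor genes had a reproducible peak, with an interval of 0 to 3.33% that contains the 2.61% of all protein-coding genes. The 4 highest are given here. At the peptide receptor gene npr-23 the pooled signal was 57.2, with 28.2 in replicate 1 and 24.9 in replicate 2. The insulin receptor gene daf-2 had 49.8, with 28.4 in replicate 2 and no region in replicate 1. The latrophilin gene lat-1 had 47.7, with 23.2 in replicate 1 and 24.7 in replicate 2. At dmsr-2 it was 42.4, with 17.4 in replicate 1 and 35.0 in replicate 2, so 3 of these 4 had a region in both libraries. Of 6 further peptide genes outside the 4 families, 3 had a pooled region, 50% against 41.0%, and none a reproducible peak. As a contrast in level, 59 of 68 cytosolic ribosomal protein genes had a pooled region, 86.8%, and 12 a reproducible peak, 17.6%. Of the 31 gcy guanylyl cyclase genes 10 had a pooled region, 32.3%, and 1 a reproducible peak, 3.23%. The shares of all protein-coding genes were 41.0% and 2.61%.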

How the data were processed

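LIM-6 ChIP-seq of whole embryos was available as region lists for 2 libraries, the libraries pooled, and reproducible peaks, in builds ce10 and ce11. The signal of each region and its −log10 q-value were used as deposited by the authors. Relaxed lists were derived by the authors from alignments and a control, to be tested for reproducibility, per the file descriptions. No p-values were filled in. The sources used here name no aligner or peak caller and give no read depth. Intervals that need depth were therefore left out, pooled and single-library signals were not compared in scale, and replicate 1 and replicate 2 signals were set against each other as deposited, with no rescaling.

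Summits of the ce11 lists were assigned to 5′ ends of protein-coding transcripts of Ensembl release 115 on WBcel235, from 1000 bp upstream to 500 bp downstream, with python 3.11.15, pandas 2.3.3 and scipy 1.17.1. Sequences and motifs were read from the RefSeq assembly. Uniqueness is the share of 31-base words within 100 bp of the summit that occur once in the genome. From the ce10 files only the number, chromosome and signal of reproducible peaks were taken. The assignment was tested on simulated data: of 200 planted summits, 111 lay inside a window and all 111 were recovered.

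The members, the gene lists and the rules were chosen with earlier results of these data known. Named were flp-11, pdf-1 and pdf-2, the 6 genes of highest pooled signal in each larger family, genes with a reproducible peak, genes with a region among the 2000 highest of one library and none in the other, genes that share a region, genes of the role groups, the up to 4 highest of the processing, release and receptor lists, lim-6 and aptf-1. Other windows, signal and uniqueness limits, overlap rules, motif distances and single libraries were tried. With 2 libraries of 1 group no test between groups exists, and counts are set beside those of all protein-coding genes.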

Additional observations from a re-analysis of the deposited data

How the results depend on the processing

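The scale of the signal and the read depth are unknown, and a region of a relaxed list may be background. When only regions with a q-value of at most 0.05 were kept, a limit chosen after the data had been seen, 1 neuropeptide gene had a pooled region, 0 had one in both libraries, 0 had TAATTA near the summit, and the median signal was that of ins-39, 71.9. Of the flp genes 0, of the nlp genes 0 and of the ins genes 1 then had a pooled region. The share of all protein-coding genes was 6.07%. The exact intervals reached 11.2% for flp, 5.06% for nlp and 13.8% for ins genes, so only that of nlp lay below this share. Regions within the limit stood at 0.704% of neuropeptide genes in each library, against 5.08% in replicate 1 and 5.78% in replicate 2. For both libraries together and for TAATTA, shares over all protein-coding genes were not taken at this limit. With only the upper part of each list by signal, cut at its median, the counts were 32 with a pooled region, 12 with a region in both libraries and 3 with TAATTA, and the median signal was 34.5. By family, 11 flp, 14 nlp and 7 ins genes then had a pooled region. With a window from 500 bp upstream to 200 bp downstream, 15 had a region in both libraries, 15 nlp genes had a pooled region and 3 genes had TAATTA, and ins-39 had a signal of 29.4, from a second region. For that window and for the cut at the median, shares over all protein-coding genes were not taken. With a window from 2000 bp upstream, 1 of the 142 neuropeptide genes, nlp-76, had a reproducible peak, against 3.32% of all protein-coding genes. The median signal was then 28.2. When as many of the highest pooled ce11 regions were taken as the ce10 list has peaks, 1 neuropeptide gene, ins-39, had one. Of all protein-coding genes 3.57% then had one. Each setting leaves out or adds regions or positions, and the cause of these shifts was not tested.

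With one library left out, 42 to 60 genes had a region, the median signal was 15.6 to 16.2 on the scale of a single library, and 4 to 5 genes had TAATTA. Among the 570 highest regions of the remaining library lay 0 to 1 genes, the 1 being ins-39 in replicate 1. The share over all protein-coding genes was 2.55% in replicate 1 and 2.49% in replicate 2. The signal at flp-11 was then 15.0 to 29.0 and at ins-39 it was 24.1 to 44.9. The median log2 ratio of the libraries moved by less than its standard deviation over genes, 0.44, under each alternative that gave one. That spread is wider than the error of a median, so this says little about stability. With the upper part of each list by signal the median was 0.29, against −0.02 in the main setting. No paired analysis was possible because both libraries belong to one group.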

Other observations

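Outside the promoter windows, the 3 reproducible peaks nearest to a neuropeptide gene stood at genes of small structural RNAs. These genes were picked after their values had been seen. At nlp-4 a reproducible peak of signal 206 lay 783 bp downstream of the 5′ end, within 250 bp of a snoRNA gene. At ins-13 one of 136.9 lay 1110 bp downstream, within 250 bp of the snRNA gene sls-2.2. At nlp-76 one of 166.6 lay 1362 bp upstream, within 250 bp of a tRNA gene, and was the peak that the wider window added. The peaks next in distance lay nearer to other protein-coding genes, as at ins-17, where a peak of 96.2 lay 1885 bp downstream and 231 bp from a 5′ end of the ribosomal protein gene rps-1. In all, 5 of the 142 neuropeptide genes had a reproducible peak within 2000 bp of a 5′ end and 8 within 5000 bp. The median distance was 53604 bp. These distances were not taken over all protein-coding genes, nor was the share of all reproducible peaks near small RNA genes. Whether the values are particular to neuropeptide genes was therefore not tested.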
